A study of Mus musculus with 14 samples.

Results

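Mitochondrial and peroxisomal fatty acid oxidation was followed through 38 genes, of 24411 gene symbols counted, in bulk RNA sequencing of mouse kidneys after renal ischemia/reperfusion injury (IRI). The members were taken by symbol as a list of enzymes, transporters and a regulator of the pathway, in a list drawn up with earlier results of these data known, and all 38 passed the filter on low counts, with at least 281 reads in every library. By where each product is known to work, 21 were classed as mitochondrial, 10 as peroxisomal and 6 as shared between compartments (Acad11, Ech1, Eci2, Crat, Acsl1 and Slc27a2), and Ppargc1a encodes a nuclear coactivator. The kidneys came from male C57/B6 mice aged 8 weeks with no genetic change named, at day 0 (n = 4), at day 1 after IRI (n = 5) and at day 3 after IRI (n = 5). The labels give the day and not the injury, and whether day 0 mice had a sham operation is not given in the sources used here. The labels do not state whether the libraries of a day came from separate mice, so the p-values measure the spread between these libraries, which may be technical. Because whole kidney was sequenced, fewer cells of a type and less RNA per cell cannot be told apart.

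Fatty acid β-oxidation shortens an acyl-CoA by a dehydrogenation, a hydration, another dehydrogenation and a thiolytic cleavage. Mitochondria take in long chains through the carnitine shuttle and hand the electrons to the respiratory chain, whereas peroxisomes take in very long, branched and dicarboxylic chains, begin with an oxidase and pass shortened products on. The proximal tubule is known for its heavy reliance on this pathway for energy.

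Libraries held 12485579 to 20476979 reads on genes. The number in a library's file name had 1 digit or 3 digits, and what this format marks is not stated. All 4 day 0 libraries had 1-digit numbers, day 1 had 3-digit numbers in replicates 1 and 2 and 1-digit numbers in replicates 3, 4 and 5, and day 3 had 3-digit numbers in replicates 1, 2 and 3 and 1-digit numbers in replicates 4 and 5. The formats stood apart within a day. The summed level of 10 proximal tubule markers, from megalin (Lrp2) to Miox, was 15458 to 17095 CPM (read counts scaled by library size) at day 0, 3393 to 4102 in the 3-digit and 9884 to 15344 in the 1-digit libraries of day 1, and 6362 to 14259 in the 3-digit and 2241 to 4337 in the 1-digit libraries of day 3. Havcr1, which encodes the injury marker KIM-1, lay at 89.8 to 119 CPM at day 0 and at 1860 and 3014 CPM in day 1 replicates 1 and 2, which have 3-digit numbers, while replicates 3, 4 and 5 held 30.5 to 151 CPM. Day 0 replicate 4 held the adipocyte marker Adipoq at 7.98 CPM, against at most 0.118 CPM in the other day 0 libraries.

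At day 0 the members differed widely in level. Per kilobase of exon, Slc27a2, a very-long-chain acyl-CoA synthetase and fatty acid transporter, stood highest at 1286 ± 68.4 CPM per kb (SD, n = 4). Acsm2, a medium-chain acyl-CoA synthetase of the mitochondrial matrix, followed at 1066 ± 54.7 CPM per kb. The trans-2-enoyl-CoA reductase Pecr and the electron carrier subunit Etfb came next at 396 ± 19.97 and 375 ± 19.5 CPM per kb, and their ranges of mean ± SD overlapped. The 3 lowest were Ppargc1a at 14.3 ± 0.651, the dienoyl-CoA reductase Decr2 at 13.1 ± 1.24 and the carnitine-acylcarnitine translocase Slc25a20 at 13.0 ± 1.01 CPM per kb, whose ranges of mean ± SD also overlapped.

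Upstream sequences are shown for 4 members whose changes are described below, the peroxisomal Ehhadh and Acaa1b, which stood far above day 0 in some injured libraries, and the mitochondrial Acsm3 and Acadm, which fell. The sequences are the 250 bases before the transcription start from RefSeq on GRCm38.p6, written 5′ to 3′ on the strand of the gene, and none of those bases lies in an annotated exon. Capitals mark the nuclear receptor half-site AGGTCA, the CCAAT box and the GC box GGGCGG on either strand.
Ehhadh, chr16:21787835-21788084, minus strand: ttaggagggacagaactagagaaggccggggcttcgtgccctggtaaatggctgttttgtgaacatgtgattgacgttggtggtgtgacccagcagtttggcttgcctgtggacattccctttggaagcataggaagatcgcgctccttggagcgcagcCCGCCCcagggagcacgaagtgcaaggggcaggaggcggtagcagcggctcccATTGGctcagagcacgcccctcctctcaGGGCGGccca
Acaa1b, chr9:119157094-119157343, minus strand: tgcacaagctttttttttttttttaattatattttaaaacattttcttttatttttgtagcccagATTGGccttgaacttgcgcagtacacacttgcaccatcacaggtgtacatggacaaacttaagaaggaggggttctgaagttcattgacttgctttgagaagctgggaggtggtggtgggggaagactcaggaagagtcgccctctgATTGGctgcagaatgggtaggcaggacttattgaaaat
Acsm3, chr7:119760673-119760922, plus strand: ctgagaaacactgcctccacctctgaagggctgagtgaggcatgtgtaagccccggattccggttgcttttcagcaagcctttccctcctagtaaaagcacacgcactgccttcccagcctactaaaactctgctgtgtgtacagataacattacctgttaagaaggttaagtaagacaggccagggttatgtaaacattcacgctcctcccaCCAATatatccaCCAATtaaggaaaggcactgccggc
Acadm, chr3:153944644-153944893, minus strand: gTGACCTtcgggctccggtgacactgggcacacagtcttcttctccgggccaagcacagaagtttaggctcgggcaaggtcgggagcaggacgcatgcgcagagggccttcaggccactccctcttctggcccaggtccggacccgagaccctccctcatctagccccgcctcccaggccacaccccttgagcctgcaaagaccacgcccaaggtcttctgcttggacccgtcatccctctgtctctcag

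The Acadm sequence held 1 half-site, 249 bases before the start, and the other 3 sequences held none. CCAAT boxes numbered 1 in the Ehhadh sequence, 2 in that of Acaa1b and 2 in that of Acsm3, and Ehhadh had 2 GC boxes. Windows of 300 bases, from 250 before to 50 after the start, matched 34 members by symbol. The direct repeat bound by PPAR with RXR, AGGTCA followed by any 1 base and AGGTCA again, was searched on both strands of these windows. An exact match was present in 0.0481% of 27025 genes with a window and in 0 of 34 members. With up to 2 mismatches outside the middle base it was present in 4.40% of genes and in 3 of 34 members (8.82%), at 83 bases before the start of Echs1, 77 before that of Etfa and 6 after that of Slc25a20. Capitals in these matches mark letters shared with the repeat, and the strand is that of the match.
Echs1, chr7:140116492-140116504, plus strand: AGGTCAcgGGTCc
Etfa, chr9:55512308-55512320, minus strand: AGGgCAaAGGTaA
Slc25a20, chr9:108662142-108662154, plus strand: AGGTgAaAGGTCg

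The estrogen-related receptor motif TCAAGGTCA was in 0.466% of genes and in 0 of 34 members. The single half-site AGGTCA, which also lies inside both longer motifs, was in 6 of 34 members (17.6%) and 18.1% of genes. The CCAAT box was in 14 of 34 members (41.2%) and 41.1% of genes, and GGGCGG in 25 of 34 members (73.5%) and 38.2% of genes. The genes with a window were not limited to those that passed the filter on low counts, whereas all members passed it, so these shares are over unlike sets. The searches for AGGTCA alone, CCAAT and GGGCGG were added after the sequences had been read. A match is a description of letters and no match says only that these letters are not in this window.

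Among the members at day 1, 4 of 8 dehydrogenases and oxidases of the first step fell. So did 2 of 4 acyl-CoA synthetases and the coactivator Ppargc1a, while 2 members rose. Of 38 members, 10 were lower at day 1 than at day 0 at an adjusted p under 0.05 (edgeR quasi-likelihood test with Benjamini-Hochberg adjustment over 14300 genes), where 18.7% of all genes tested were lower. The 2 higher members, Eci2 and Slc25a20, compare with 23.3% of all genes, so that 12 of 38 members passed in either direction where 42.1% of all genes did. The median log2 fold change of the members was -0.25, against 0.01 over all genes tested. Members that were lower also at day 3 were Acadm, Acadsb, Acsm3, Crot, Echs1, Scp2, Slc27a2 and Ppargc1a.

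At day 3, 13 members were lower and 8 higher than at day 0. Of all genes tested 33.3% passed, 13.8% lower and 19.5% higher, so that the share of higher members was near that of all genes. The day 3 members gained in the lower direction were Acad10, Acads, Acsm2, Etfa and Pecr, and in the higher direction Acaa1b, Acaa2, Cpt1a, Decr2, Eci1 and Hsd17b4. The comparisons of day 1 and of day 3 share the day 0 libraries. Between day 1 and day 3, 4 members were higher at day 3 (Crot, Decr2, Etfdh and Ppargc1a), against 8.52% of all genes, and 2 were lower (Acsm2 and Acsm3), against 7.39% of all genes. Without TMM, the trimmed-mean scaling of library sizes, 7 members were higher and 1 was lower. In either direction 15.9% of all genes passed between these days.

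**Figure D1:**
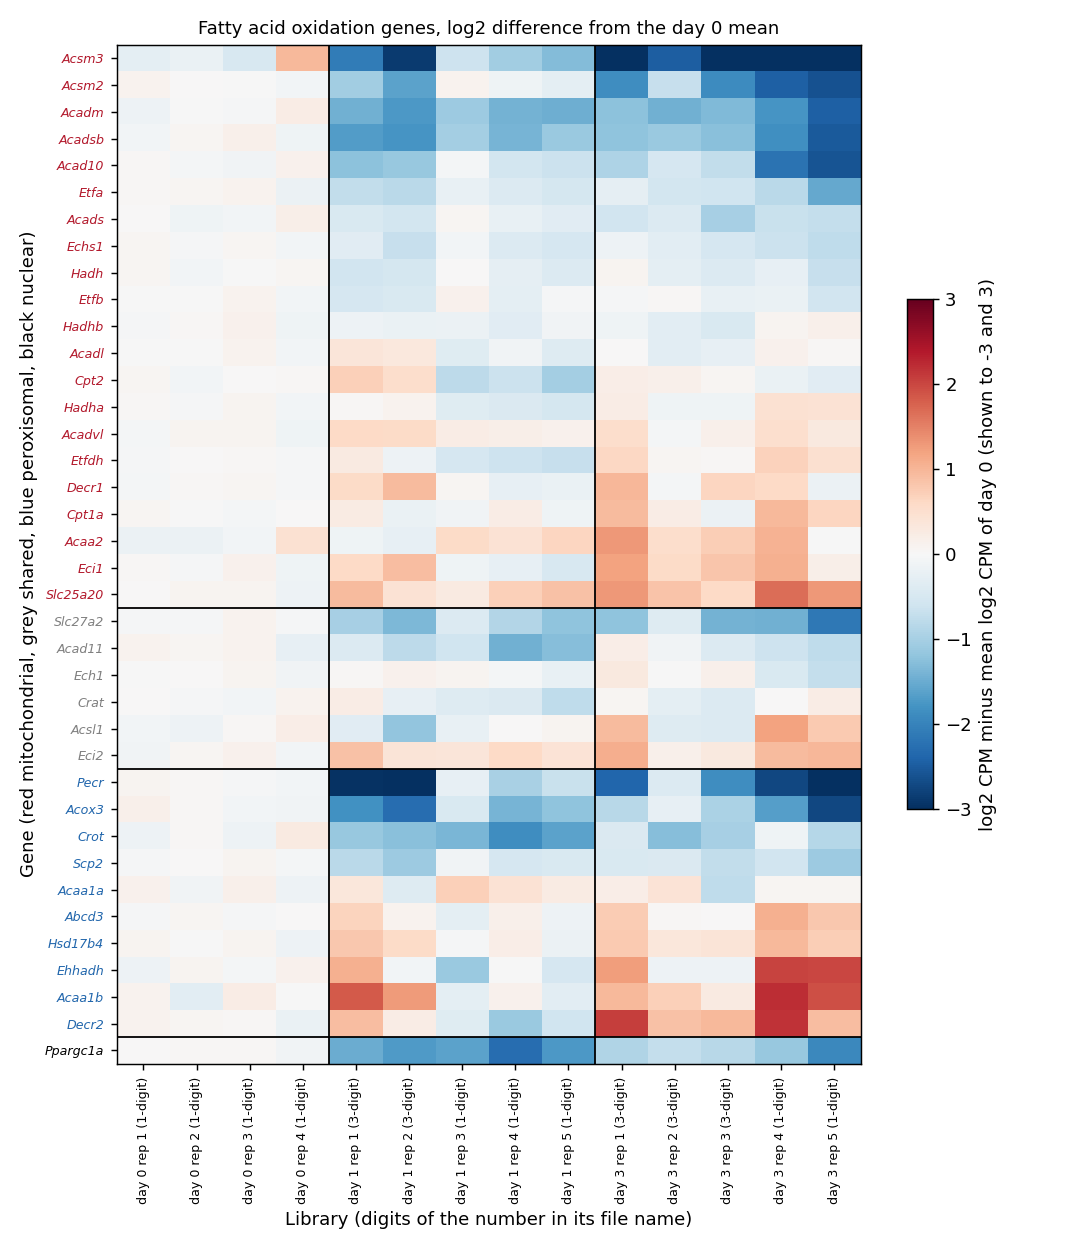
Log2 CPM of each of 38 genes minus its mean over the 4 day 0 libraries, in each of 14 libraries (columns, with the digits of the number in the file name), with genes grouped by compartment and ordered by the day 3 change. Acsm3, Acadm and Ppargc1a are blue in every library of days 1 and 3, whereas Ehhadh and Acaa1b are red in some libraries of day 1 and blue in others.

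Values of the 2 groups did not overlap for 11 members that were lower and 3 that were higher at day 1, and the groups of 42.0% of all genes did not overlap. At day 3 the corresponding counts were 13 lower and 6 higher, against 33.4% of all genes. No member separated day 3 from day 1 completely, where 7.61% of all genes did. When each library was left out in turn, 7 of 12 day 1 calls, 10 of 21 day 3 calls and 2 of 6 calls between day 3 and day 1 held in all 14 fits. The day 1 count was 7 without day 0 replicate 4, and the day 3 count was 13 without day 0 replicate 2, day 0 replicate 3 or day 3 replicate 4. Of the 8 higher calls at day 3, the count was 3 without day 0 replicate 2 or day 3 replicate 4, 4 without day 0 replicate 1, 3 or 4 and 5 without day 3 replicate 1, while the lower calls numbered 9 to 14 over the 14 fits. The count between day 3 and day 1 was 2 without day 1 replicate 4, day 1 replicate 5 or day 3 replicate 1, and 3 without day 1 replicate 3 or day 3 replicate 4.

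**Figure D2:**
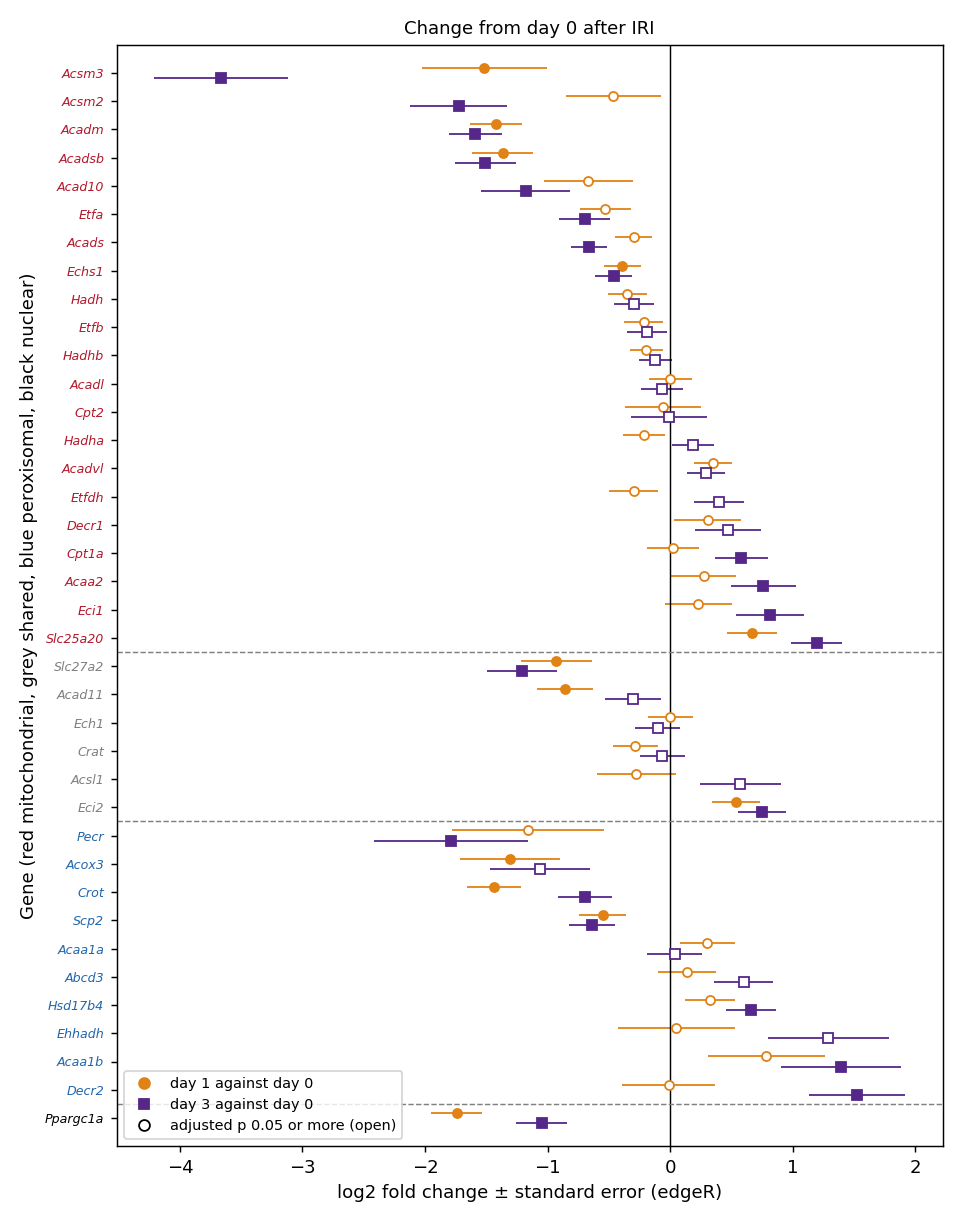
Log2 fold change ± standard error from edgeR for day 1 (circles) and day 3 (squares) against day 0, for each gene, grouped by compartment, with filled symbols for an adjusted p under 0.05. At day 3 the mitochondrial genes run from -3.66 for Acsm3 to 1.20 for Slc25a20 and the peroxisomal genes from -1.79 for Pecr to 1.53 for Decr2.

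Among the acyl-CoA dehydrogenases, which catalyse the first oxidation step, the medium-chain enzyme Acadm fell at both times. Its levels were 1161, 1288, 1262 and 1509 CPM at day 0, 476, 394, 612, 483 and 473 CPM at day 1 and 554, 481, 519, 379 and 238 CPM at day 3. Every injured library lay below every day 0 library. The log2 fold change was -1.42 ± 0.22 at day 1 (adjusted p = 2.71e-04, edgeR) and -1.59 ± 0.22 at day 3 (adjusted p = 1.84e-04, edgeR), where ± is the standard error for every log2 fold change. Acadsb, which acts on short branched chains from amino acids as well, moved likewise. It was at 193, 212, 228 and 185 CPM at day 0, 64.0, 59.4, 101, 77.0 and 94.8 CPM at day 1 and 87.9, 93.8, 85.2, 57.0 and 35.5 CPM at day 3. The groups did not overlap, with log2 fold changes of -1.37 ± 0.25 (adjusted p = 8.64e-04, edgeR) and -1.51 ± 0.25 (adjusted p = 6.61e-04, edgeR).

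Acad10 and Acad11 are less studied family members. Acad10 was at 139, 130, 127 and 150 CPM at day 0, at 58.1, 61.4, 130, 92.9 and 87.7 CPM at day 1 and at 71.4, 96.3, 81.6, 29.1 and 22.7 CPM at day 3. At day 1 replicate 3 reached the day 0 range, and the log2 fold change of -0.67 ± 0.36 did not pass (adjusted p = 0.151, edgeR). At day 3 all libraries were lower, by -1.18 ± 0.36 (adjusted p = 0.0232, edgeR), a call lost without day 0 replicate 1, day 0 replicate 4 or day 3 replicate 4 (adjusted p = 0.0508, 0.0529 and 0.0501, edgeR). Acad11 was at 329, 319, 330 and 262 CPM at day 0, at 231, 180, 204, 113 and 127 CPM at day 1 and at 352, 285, 234, 201 and 183 CPM at day 3. It fell at day 1, by -0.86 ± 0.23 (adjusted p = 0.00853, edgeR) with no overlap, and at day 3 its range met that of day 0, at -0.30 ± 0.23 (adjusted p = 0.315, edgeR). Its exons share 479 bases with Ackr4 on the other strand and 163 bases with Gm28305 on its own strand, so part of its reads may belong to the latter or have been left uncounted.

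Of the remaining dehydrogenases, Acads fell at day 3 and the other two did not pass. Acadvl, the very-long-chain enzyme of the inner membrane, was at 377, 419, 420 and 362 CPM at day 0, at 598, 582, 461, 448 and 430 CPM at day 1 and at 565, 380, 435, 554 and 484 CPM at day 3. Each day 1 library lay above the day 0 range, but the log2 fold changes of 0.35 ± 0.15 (adjusted p = 0.0792, edgeR) and 0.29 ± 0.15 (adjusted p = 0.155, edgeR) did not pass. The short-chain enzyme Acads fell at day 3, from 244 to 299 CPM at day 0 to 133 to 201 CPM, a log2 fold change of -0.66 ± 0.15 (adjusted p = 0.00453, edgeR). The long-chain enzyme Acadl gave 0.00 ± 0.17 and -0.07 ± 0.17 at the 2 times.

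In peroxisomes the first step is taken by acyl-CoA oxidases, and Acox3 acts on branched chains. Acox3 was at 369, 342, 312 and 306 CPM at day 0, at 93.4, 67.4, 243, 125 and 144 CPM at day 1 and at 187, 281, 171, 105 and 49.8 CPM at day 3. No injured library reached the day 0 range. It fell by -1.30 ± 0.41 at day 1 (adjusted p = 0.0200, edgeR), and the -1.06 ± 0.41 of day 3 missed the threshold (adjusted p = 0.0579, edgeR).

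The hydration and the following dehydrogenation are joined in bifunctional enzymes of peroxisomes. Ehhadh, which acts on straight and dicarboxylic chains, was at 828, 968, 879 and 998 CPM at day 0, at 1914, 865, 424, 906 and 647 CPM at day 1 and at 2169, 821, 824, 3738 and 3677 CPM at day 3. At day 3 replicates 1, 4 and 5 lay above day 0 and replicates 2 and 3 did not, and at day 1 replicate 1 was high. The log2 fold changes of 0.05 ± 0.48 (adjusted p = 0.939, edgeR) and 1.29 ± 0.49 (adjusted p = 0.0575, edgeR) did not pass. The other bifunctional enzyme of peroxisomes, Hsd17b4, handles branched and very long chains. It was at 318, 301, 322 and 272 CPM at day 0, at 531, 452, 297, 350 and 268 CPM at day 1 and at 518, 383, 397, 595 and 505 CPM at day 3. All day 3 libraries lay above day 0, with a log2 fold change of 0.66 ± 0.20 (adjusted p = 0.0226, edgeR), a call lost without day 0 replicate 2 (0.66), day 0 replicate 4 (0.61) or day 3 replicate 4 (0.57).

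Of the mitochondrial enzymes of these steps, the short-chain hydratase Echs1 fell slightly. It ranged from 248 to 278 CPM at day 0, 163 to 252 CPM at day 1 and 156 to 239 CPM at day 3, with log2 fold changes of -0.39 ± 0.15 (adjusted p = 0.0481, edgeR) and -0.46 ± 0.15 (adjusted p = 0.0293, edgeR). Day 1 replicate 3 reached the day 0 range. These calls of Echs1 held in 4 and 9 of 14 fits with 1 library left out. The fits that lost them gave -0.43 to -0.32 at day 1 and -0.47 to -0.38 at day 3. Hadha, the α subunit of the trifunctional protein, ranged from 261 to 294 CPM at day 0, from 192 to 298 CPM at day 1 and from 253 to 379 CPM at day 3. The 3-hydroxyacyl-CoA dehydrogenase Hadh ranged from 584 to 650, from 417 to 623 and from 385 to 654 CPM. Neither passed at either time.

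Thiolases cleave the shortened chain. Peroxisomal thiolase is encoded by a near-identical gene pair, Acaa1a and Acaa1b, so uniquely mapped reads may be lost from or divided between them, and Acaa1b also shares 224 exonic bases with Dlec1 on the other strand. Acaa1b was at 264, 195, 285 and 242 CPM at day 0, at 878, 588, 199, 265 and 196 CPM at day 1 and at 483, 398, 295, 1143 and 929 CPM at day 3. All 5 day 3 libraries lay above day 0, and at day 1 replicates 1 and 2 did. The log2 fold change was 0.79 ± 0.48 at day 1 (adjusted p = 0.196, edgeR) and 1.40 ± 0.49 at day 3 (adjusted p = 0.0398, edgeR), the latter held in 8 of 14 fits with 1 library left out (1.09 to 1.54). Acaa1a was at 137, 117, 140 and 113 CPM at day 0, at 161, 96.5, 206, 171 and 149 CPM at day 1 and at 146, 167, 75.0, 131 and 132 CPM at day 3. Its groups overlapped, with log2 fold changes of 0.30 ± 0.22 (adjusted p = 0.287, edgeR) and 0.04 ± 0.22 (adjusted p = 0.913, edgeR).

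Of the other thiolases, the mitochondrial Acaa2 was at 180, 179, 191 and 278 CPM at day 0, at 186, 171, 301, 276 and 317 CPM at day 1 and at 503, 292, 337, 423 and 200 CPM at day 3. Day 0 replicate 4 stood apart from the other day 0 libraries and overlapped both injured groups. The day 3 log2 fold change of 0.76 ± 0.27 passed (adjusted p = 0.0398, edgeR) and held in 8 of 14 fits with 1 library left out (0.60 to 0.94). Scp2 encodes both a peroxisomal thiolase for branched chains and a sterol carrier protein, which counts per gene do not tell apart. Scp2 fell from 899 to 994 CPM at day 0 to 442 to 876 CPM at day 1 and 439 to 698 CPM at day 3, by -0.55 ± 0.19 (adjusted p = 0.0308, edgeR) and -0.64 ± 0.19 (adjusted p = 0.0196, edgeR). The day 1 call of Scp2 held in 7 of 14 such fits and the day 3 call in 13, lost without day 0 replicate 3 (-0.61). Hadhb, the β subunit of the trifunctional protein, lay between 189 and 286 CPM in every library of the study and did not pass.

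The peroxisomal reductases of enoyl-CoA chains, Pecr and Decr2, had the lowest and the highest log2 fold change at day 3 of the 10 peroxisomal members. Pecr, the trans-2-enoyl-CoA reductase, saturates the double bond that β-oxidation forms, whereas Decr2 acts in the oxidation of unsaturated chains. Pecr was at 633, 617, 589 and 565 CPM at day 0, at 76.4, 74.5, 509, 308 and 379 CPM at day 1 and at 115, 455, 165, 89.8 and 46.1 CPM at day 3. Every injured library lay below day 0, the least so day 1 replicate 3 and day 3 replicate 2. The log2 fold change was -1.16 ± 0.62 at day 1 (adjusted p = 0.144, edgeR) and -1.79 ± 0.63 at day 3 (adjusted p = 0.0406, edgeR), and the day 3 call held in 6 of 14 fits with 1 library left out (-2.53 to -1.54). Decr2, the peroxisomal 2,4-dienoyl-CoA reductase, was at 37.2, 36.3, 35.6 and 29.9 CPM at day 0, at 66.3, 40.2, 26.8, 16.1 and 22.9 CPM at day 1 and at 147, 63.9, 67.9, 155 and 66.1 CPM at day 3. It rose in all day 3 libraries, by 1.53 ± 0.39 against day 0 (adjusted p = 0.00935, edgeR) and by 1.54 ± 0.36 against day 1 (adjusted p = 0.0139, edgeR).

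The enoyl-CoA isomerase Eci2, found in both organelles, was at 114, 127, 132 and 115 CPM at day 0, at 224, 159, 156, 185 and 162 CPM at day 1 and at 260, 136, 149, 236 and 242 CPM at day 3. It rose without overlap at both times, by 0.54 ± 0.19 (adjusted p = 0.0380, edgeR), which held in 8 of 14 fits with 1 library left out (0.41 to 0.58), and by 0.75 ± 0.20 (adjusted p = 0.0105, edgeR). The mitochondrial isomerase Eci1 was at 120, 113, 127 and 107 CPM at day 0, at 178, 221, 106, 97.9 and 83.2 CPM at day 1 and at 271, 173, 208, 245 and 132 CPM at day 3. It was higher in all day 3 libraries, by 0.82 ± 0.28 (adjusted p = 0.0362, edgeR), held in 7 of 14 such fits (0.70 to 0.95). Ech1, a dienoyl-CoA isomerase of both organelles, was at 554, 565, 594 and 515 CPM at day 0, at 570, 609, 591, 538 and 478 CPM at day 1 and at 681, 551, 618, 407 and 338 CPM at day 3. Its groups overlapped at both times, and it did not pass (-0.10 ± 0.18 at day 3). The mitochondrial dienoyl-CoA reductase Decr1 ranged from 208 to 227 CPM at day 0, from 184 to 419 CPM at day 1 and from 193 to 436 CPM at day 3, and did not pass.

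**Figure D3:**
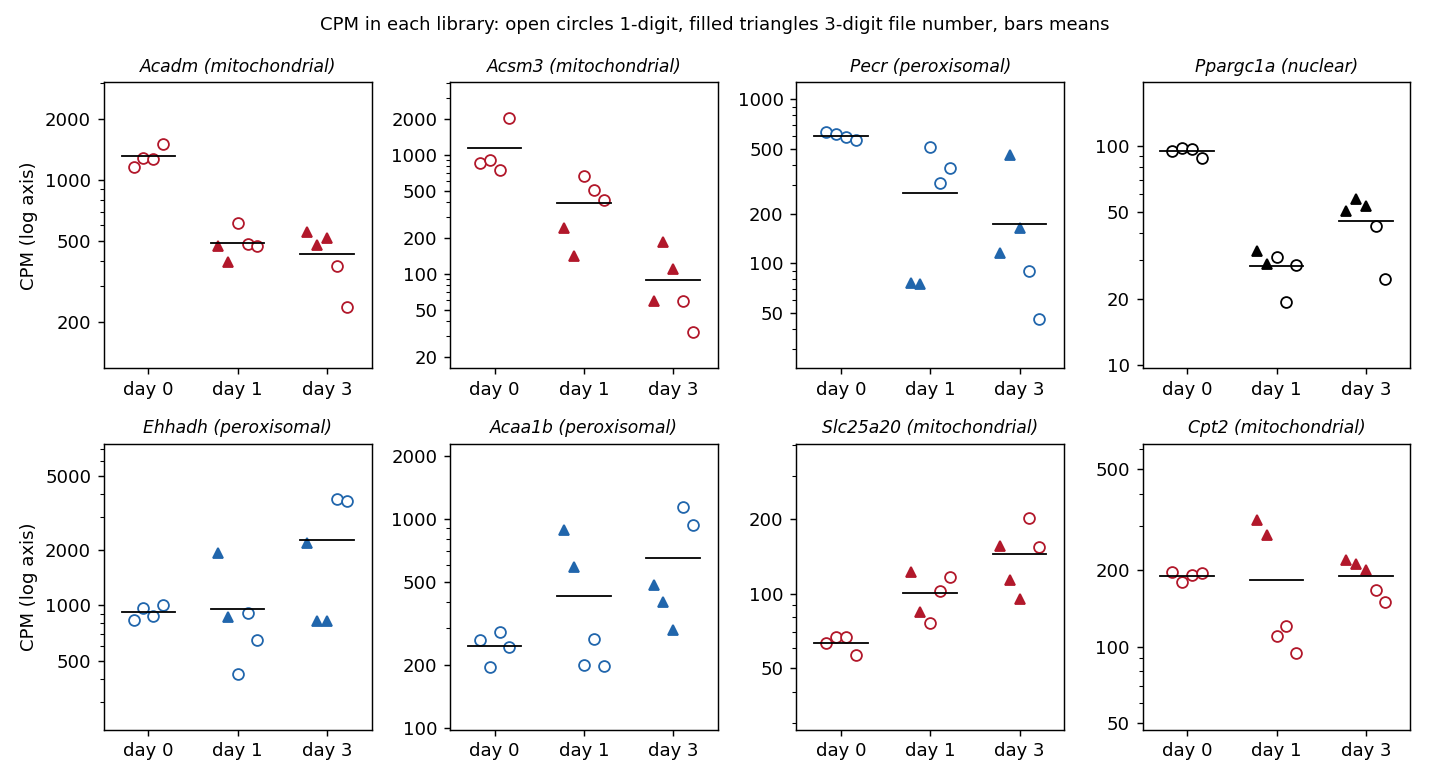
CPM on a log axis of 8 genes in each library, with open circles for 1-digit and filled triangles for 3-digit file numbers and bars for the mean of a day. Acadm and Ppargc1a are below day 0 in every injured library, and in Pecr, Acaa1b and Cpt2 the formats of day 1 do not overlap.

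The carnitine shuttle brings long acyl chains into mitochondria. Its translocase Slc25a20 was at 63.0, 66.4, 66.7 and 56.2 CPM at day 0, at 122, 84.4, 75.7, 103 and 117 CPM at day 1 and at 156, 114, 95.5, 202 and 155 CPM at day 3. It rose in every injured library, by 0.67 ± 0.20 (adjusted p = 0.0178, edgeR), which was lost without day 0 replicate 4 (0.62), and by 1.20 ± 0.21 at day 3 (adjusted p = 9.41e-04, edgeR). The gatekeeping transferase Cpt1a was at 511, 488, 469 and 498 CPM at day 0, at 586, 430, 453, 573 and 451 CPM at day 1 and at 943, 569, 432, 970 and 765 CPM at day 3. Replicate 3 of day 3 lay below day 0 and the other 4 above, and the log2 fold change of 0.58 ± 0.21 was at the edge of the threshold (adjusted p = 0.0483, edgeR) and held in 3 of 14 fits with 1 library left out (0.47 to 0.68). The inner-membrane transferase Cpt2 was at 197, 179, 191 and 195 CPM at day 0, at 315, 276, 110, 121 and 94.4 CPM at day 1 and at 219, 212, 200, 167 and 150 CPM at day 3. At day 1 replicates 1 and 2 lay above day 0 and replicates 3, 4 and 5 below, and it passed at neither time, at -0.06 ± 0.31 (adjusted p = 0.898, edgeR) and -0.01 ± 0.31 (adjusted p = 0.987, edgeR).

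Acyl-CoA synthetases activate fatty acids, and 3 of the 4 among the members were lower at day 3, where 13.8% of all genes were. Synthetases outside the members went both ways. Acsl5 was at 85.2 to 107 CPM at day 0 and 123 to 194 CPM at day 3, and Acsm1 at 648 to 743 CPM and 67.8 to 417 CPM. Acsm3, a mitochondrial medium-chain synthetase, was at 851, 898, 740 and 2027 CPM at day 0, at 242, 140, 668, 504 and 421 CPM at day 1 and at 59.1, 186, 109, 59.2 and 32.3 CPM at day 3. The groups of injured libraries lay below day 0, in which replicate 4 was high. The log2 fold change was -1.52 ± 0.51 at day 1 (adjusted p = 0.0275, edgeR), lost without day 0 replicate 4 (-1.07) or day 1 replicate 1 (-1.41), -3.66 ± 0.54 at day 3 (adjusted p = 3.29e-04, edgeR) and -2.15 ± 0.50 between day 3 and day 1 (adjusted p = 0.0129, edgeR). Acsm3 shares 1962 exonic bases with Eri2 on the other strand, and the counts used take reads of 1 strand. Acsm2 was at 8455, 7915, 7811 and 7477 CPM at day 0, at 3821, 2602, 8509, 7255 and 6488 CPM at day 1 and at 2173, 4899, 2154, 1444 and 1289 CPM at day 3. It fell at day 3, by -1.73 ± 0.39 (adjusted p = 0.00480, edgeR), while day 1 overlapped day 0 (-0.46 ± 0.39, adjusted p = 0.346, edgeR). The -1.26 ± 0.37 between day 3 and day 1 (adjusted p = 0.0351, edgeR) held in 8 of 14 fits with 1 library left out (-1.70 to -1.08).

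The transporter and synthetase Slc27a2 was at 4714, 4686, 5212 and 4698 CPM at day 0, at 2425, 1908, 3656, 2622 and 2084 CPM at day 1 and at 2080, 3687, 1808, 1763 and 1087 CPM at day 3. It fell without overlap, by -0.93 ± 0.29 (adjusted p = 0.0185, edgeR) and -1.21 ± 0.29 (adjusted p = 0.00606, edgeR). Acsl1, the long-chain synthetase of the outer mitochondrial membrane, was at 226, 216, 244 and 277 CPM at day 0, at 190, 106, 204, 241 and 254 CPM at day 1 and at 465, 182, 179, 549 and 415 CPM at day 3. Replicates 1, 4 and 5 of day 3 lay above and replicates 2 and 3 below day 0, and it did not pass (-0.27 ± 0.33 and 0.57 ± 0.33).

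Electron transfer flavoprotein (Etfa and Etfb) and its dehydrogenase (Etfdh) carry electrons from the acyl-CoA dehydrogenases to ubiquinone. Etfa fell from 407 to 494 CPM at day 0 to 159 to 382 CPM at day 3, by -0.70 ± 0.21 (adjusted p = 0.0189, edgeR), lost without day 0 replicate 3 (-0.66). Etfb, whose exons share 617 bases with Gm45233 on the same strand, ranged from 293 to 479 CPM over all libraries and did not pass. Etfdh was at 236 to 250 CPM at day 0, 150 to 290 CPM at day 1 and 247 to 389 CPM at day 3, and was higher at day 3 than at day 1 by 0.70 ± 0.19 (adjusted p = 0.0252, edgeR), held in 9 of 14 fits with 1 library left out (0.61 to 0.87).

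Peroxisomes import acyl-CoA through ABC transporters such as Abcd3 and export shortened chains as carnitine esters. The carnitine octanoyltransferase Crot was at 581, 668, 582 and 787 CPM at day 0, at 295, 271, 252, 179 and 213 CPM at day 1 and at 481, 267, 327, 591 and 359 CPM at day 3. It fell at day 1 without overlap, by -1.44 ± 0.22 (adjusted p = 3.05e-04, edgeR), and was intermediate at day 3, when replicate 4 reached the day 0 range, by -0.69 ± 0.22 against day 0 (adjusted p = 0.0267, edgeR) and by 0.74 ± 0.21 against day 1 (adjusted p = 0.0291, edgeR). The day 3 call was lost without day 0 replicate 2 (-0.68), day 0 replicate 4 (-0.59) or day 3 replicate 5 (-0.64), and the rise from day 1 held in 9 of 14 such fits (0.57 to 0.86). The carnitine acetyltransferase Crat was at 211, 204, 196 and 222 CPM at day 0, at 243, 176, 159, 155 and 123 CPM at day 1 and at 217, 170, 156, 210 and 243 CPM at day 3. Its groups overlapped, and neither Crat nor Abcd3 (544 to 581 CPM at day 0, 459 to 889 CPM at day 1 and 561 to 1178 CPM at day 3) passed.

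Ppargc1a encodes PGC-1α, a coactivator that drives mitochondrial biogenesis and fatty acid oxidation genes, and its fall at day 1 had the lowest log2 fold change of all 38 members. It was at 94.9, 97.2, 96.8 and 87.9 CPM at day 0, at 33.2, 28.9, 30.9, 19.3 and 28.5 CPM at day 1 and at 50.2, 57.1, 52.9, 42.8 and 24.6 CPM at day 3. All injured libraries lay below day 0, and 4 of 5 day 3 libraries lay above the day 1 range, with replicate 5 inside it. The log2 fold change was -1.74 ± 0.21 at day 1 (adjusted p = 5.17e-05, edgeR), -1.05 ± 0.21 at day 3 (adjusted p = 0.00206, edgeR) and 0.69 ± 0.20 between day 3 and day 1 (adjusted p = 0.0301, edgeR), the last holding in 9 of 14 fits with 1 library left out (0.58 to 0.83).

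Mitochondrial and peroxisomal genes were then set side by side, by counts and medians and with no test of the classes. At day 1, 4 of 21 mitochondrial members were lower and 1 was higher, and 3 of 10 peroxisomal members were lower, where 18.7% and 23.3% of all genes were lower and higher. Median log2 fold changes were -0.22 for the mitochondrial, 0.02 for the peroxisomal and -0.28 for the 6 shared members. At day 3, 8 mitochondrial members were lower and 4 higher, and 3 peroxisomal members were lower and 3 higher, where 13.8% and 19.5% of all genes were. The medians were -0.12, 0.32 and -0.08. Computed in each library, the mitochondrial median minus the peroxisomal median was -0.10 ± 0.32 (SD, n = 5) at day 1 and -0.39 ± 0.39 (SD, n = 5) at day 3, each a difference in log2 CPM from the day 0 mean. Without day 1 replicate 1 the day 1 difference was 0.04, on the other side of 0. With the 6 shared members counted as peroxisomal the difference was -0.0087 at day 1 and -0.19 at day 3. At day 3 replicates 1, 4 and 5 had peroxisomal medians of 0.49, 0.51 and 0.40 and replicates 2 and 3 had -0.06 and -0.44, while their mitochondrial medians ran from -0.34 to 0.02. At day 1 replicate 1 had a peroxisomal median of 0.51 and the other 4 libraries ran from -0.47 to -0.24. The 10 proximal tubule markers had medians of -2.44 and -2.58 in day 1 replicates 1 and 2 and of -1.52, -2.29 and -3.56 in day 3 replicates 1, 4 and 5, against -1.32 to -0.17 in the other injured libraries, and their part in the class medians was not tested.

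**Figure D4:**
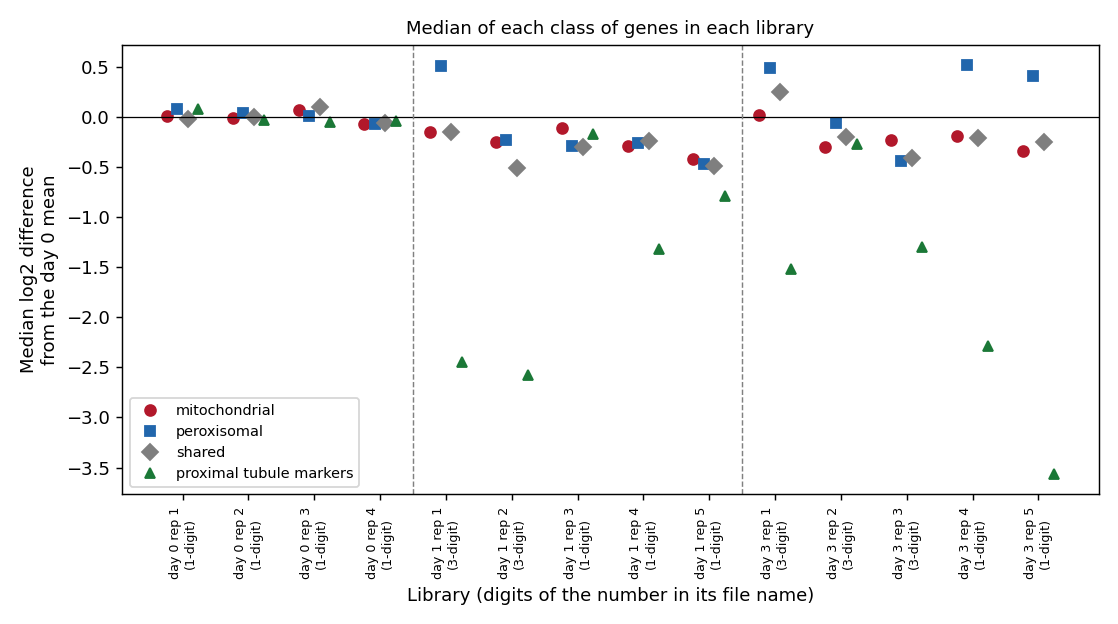
Median log2 difference from the day 0 mean of the mitochondrial, peroxisomal and shared genes and of 10 proximal tubule markers, in each library. The peroxisomal median is near 0.5 in day 1 replicate 1 and in day 3 replicates 1 and 4, and the marker median falls to -3.56 in day 3 replicate 5 while the mitochondrial median stays between -0.42 and 0.02 in the injured libraries.

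Members also differed between the formats within a day. For 30 of 38 members, called or not, the sign of this difference was opposite at the 2 days, where 40.3% of all genes tested had opposite signs. At day 1, 17 members differed by format (35.0% of all genes did) in an edgeR fit with 1 term per day and format. Of these 10 were higher with 3-digit numbers, against 18.6% of all genes, and 7 were lower, against 16.4%, and without TMM scaling 14 members were higher and 4 lower. At day 3, 12 differed (18.5% of all genes did), of which 9 were higher and 3 lower, against 10.3% and 8.22% of all genes. The difference between the format effects, day 3 minus day 1, passed for 19 of 38 members, 10 higher and 9 lower, against 9.10% and 8.45% of all genes and 17.6% in either direction, and without TMM scaling it was higher for 9 and lower for 13 members. Leaving out 1 library moved the day 1 count from 17 to 10 without day 1 replicate 1 or 2, the day 3 count from 12 to 2 without day 3 replicate 5, to 7 without day 3 replicate 2 or 3 and to 21 (9 higher and 12 lower) without day 3 replicate 1, and the count of differences from 19 to 9 without day 1 replicate 1. Mitochondrial members whose difference was higher were Acad10, Acadm, Acadsb, Acsm2, Acsm3, Etfa and Etfb, and peroxisomal ones were Acox3, Pecr and Scp2. Lower were the mitochondrial Acadl, Cpt2, Etfdh and Hadha, the peroxisomal Abcd3, Acaa1b, Ehhadh and Hsd17b4 and the shared Crat.

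Pecr showed the largest such difference among the members. Its log2 ratio of 3-digit to 1-digit libraries was -2.40 ± 0.49 at day 1 (adjusted p = 0.00288, edgeR) and 1.85 ± 0.48 at day 3 (adjusted p = 0.0214, edgeR). The 3-digit libraries of day 1 were at 76.4 and 74.5 CPM and the 1-digit libraries of day 3 at 89.8 and 46.1 CPM, below the other libraries of their day. Acad10 followed the same order, at -0.79 ± 0.19 (adjusted p = 0.00638, edgeR) and 1.68 ± 0.20 (adjusted p = 0.00116, edgeR), as did Acox3, at -1.09 ± 0.34 (adjusted p = 0.0256, edgeR) and 1.46 ± 0.35 (adjusted p = 0.0162, edgeR). Acsm2 gave -1.21 ± 0.33 (adjusted p = 0.0135, edgeR) and 1.17 ± 0.33 (adjusted p = 0.0292, edgeR). The 3-digit libraries of day 1 and the 1-digit libraries of day 3 number 2 each, so leaving out 1 of them leaves a lone library that is assumed to vary like the other groups. With 1 library left out the calls of Acad10 at both days and of Pecr at day 1 held in all 14 fits, those of Pecr and Acox3 at day 3 in 13, that of Acox3 at day 1 in 11, and those of Acsm2 in 13 and 11.

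Acaa1b ran in the opposite order. Its 3-digit libraries were higher at day 1, by 1.73 ± 0.24 (adjusted p = 4.01e-04, edgeR), and lower at day 3, by -1.40 ± 0.24 (adjusted p = 0.00506, edgeR). Ehhadh gave 1.08 ± 0.42 at day 1 (adjusted p = 0.0632, edgeR) and -1.54 ± 0.42 at day 3 (adjusted p = 0.0270, edgeR), the latter held in 10 of 14 such fits. Cpt2 was higher in the 3-digit libraries at both days, by 1.45 ± 0.13 (adjusted p = 8.73e-05, edgeR) and 0.41 ± 0.13 (adjusted p = 0.0490, edgeR), the latter held in 2 of 14 fits with 1 library left out (0.31 to 0.49). Marker sums of several cell types moved with these differences, and their part in them was not tested. The 10 proximal tubule markers followed the order of Pecr and Acad10, with day 1 sums of 3393 to 4102 CPM for 3-digit and 9884 to 15344 CPM for 1-digit numbers, and day 3 sums of 6362 to 14259 and 2241 to 4337 CPM. Of these markers 6 were lower in the 3-digit libraries at day 1 and 6 were higher in them at day 3. The sums of injured tubule, adipocyte and fibroblast markers ran in the order of Acaa1b, though few of their genes did so singly. The 6 injured tubule markers summed to 6857 to 7061 and 2117 to 4258 CPM at day 1 in the same order of formats, and to 1784 to 4375 and 4662 to 6237 CPM at day 3. The 7 adipocyte markers summed to 22.9 to 34.9 and 1.29 to 6.69 CPM at day 1 and to 0.620 to 6.57 and 17.3 to 23.6 CPM at day 3, and the 4 fibroblast markers to 180.2 to 183 and 103 to 145 CPM and to 165 to 299 and 331 to 342 CPM. Of the injured tubule markers 1 was higher in the 3-digit libraries at day 1 (Havcr1, by 5.01 ± 0.69) and 1 was lower in them at day 3 (Krt20, at -2.43 ± 0.76), and Krt20, Sox9 and Vcam1 were below 0 at day 1. Of the fibroblast markers Col1a1 was higher at day 1, by 2.63 ± 0.42, with 0.38 at day 3, and Pdgfra and Pdgfrb were lower at day 3. The 3 adipocyte markers that could be tested gave 3.65 (Plin1), 3.01 (Cidec) and -0.91 (Cidea) at day 1 and -2.39, -2.97 and -1.03 at day 3, with adjusted p from 0.0805 to 0.587 (edgeR). The sums of the macrophage, endothelial and hepatocyte lists also did not overlap between the formats at either day.

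**Figure D5:**
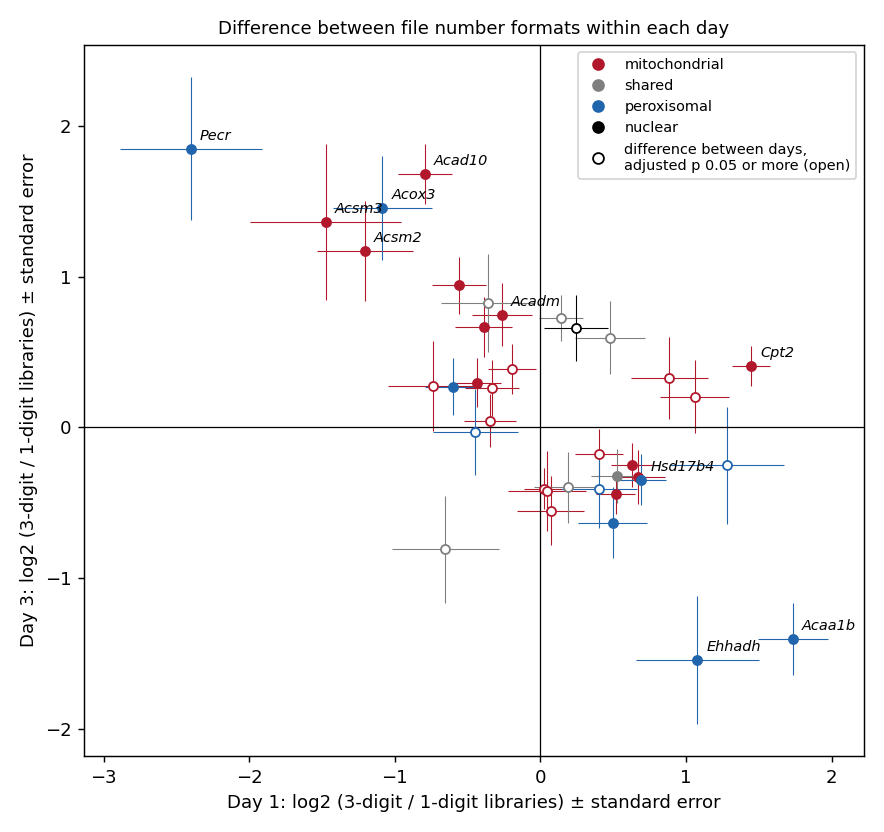
Log2 ratio of 3-digit to 1-digit libraries ± standard error for each gene at day 1 (horizontal axis) and day 3 (vertical axis), with filled symbols where the difference between the days has an adjusted p under 0.05. Pecr lies at -2.40 and 1.85, Acaa1b at 1.73 and -1.40, and Cpt2 is above 0 on both axes.

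Split by format, changes from day 0 were counted over fewer libraries. All day 0 libraries had 1-digit numbers, so the 3-digit libraries were compared with day 0 across formats. In those comparisons day and format cannot be told apart. Against day 0, 14 members passed in the 1-digit libraries of day 1 (58.5% of all genes did), 24 in the 3-digit libraries of day 1 (41.6%), 29 in the 1-digit libraries of day 3 (53.7%) and 19 in the 3-digit libraries of day 3 (32.4%). Lower than day 0 were 13 members in the 1-digit libraries of day 1 (29.6% of all genes), 16 in the 3-digit libraries of day 1 (19.0%), 16 in the 1-digit libraries of day 3 (25.1%) and 12 in the 3-digit libraries of day 3 (13.3%). Higher were 1, 8, 13 and 7 members in the same order, against 28.9%, 22.6%, 28.6% and 19.1% of all genes. Acadm, Acadsb and Ppargc1a were lower in all 4 of these comparisons, with Ppargc1a at -1.85, -1.60, -1.48 and -0.82. Ehhadh passed in the 1-digit libraries of day 3, at 2.01, and gave 0.47 in the 3-digit ones. From day 1 to day 3, 25 members passed in the 1-digit libraries (32.0% of all genes did), 14 higher and 11 lower, against 16.5% and 15.5% of all genes. In the 3-digit libraries 7 passed (13.9% of all genes did), 4 higher and 3 lower, against 7.50% and 6.41%. With 1 library left out, 8 of 14 and 11 of 24 calls of day 1, and 19 of 29 and 11 of 19 of day 3, held in all 14 fits for the 1-digit and the 3-digit libraries. Between day 3 and day 1, 12 of 25 held in the 1-digit libraries and 0 of 7 in the 3-digit ones. The shuttle enzyme Cpt2 was below day 0 in the 1-digit libraries of day 1, at -0.81, and above it in the 3-digit ones, at 0.63.

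Other genes of the pathway were taken from a list of 52 genes of fatty acid uptake, activation, oxidation and its regulation, of which 50 passed the filter. At day 1, 13 were lower and 8 higher, where 18.7% and 23.3% of all genes were, and at day 3, 14 were lower and 11 higher, against 13.8% and 19.5%. Ppara, the nuclear receptor that induces peroxisomal oxidation genes, gave -0.16 ± 0.36 at day 1 and rose by 1.19 ± 0.37 at day 3 (adjusted p = 0.0242, edgeR). Hnf4a, a transcription factor of tubule identity, fell by 1.02 on the log2 scale at day 1 (adjusted p = 0.00133, edgeR). Hacl1, the lyase of peroxisomal α-oxidation, gave -0.93 ± 0.36 at day 1 (adjusted p = 0.0501, edgeR) and rose by 1.70 ± 0.37 at day 3 (adjusted p = 0.00405, edgeR). Acot2, a mitochondrial thioesterase, rose at both times, by 1.82 ± 0.16 and 1.36 ± 0.16, and the peroxisomal thioesterase Acot3 fell at day 1, by -1.48 ± 0.30, and rose at day 3, by 1.03 ± 0.30. The median log2 fold change of the list was -0.35 at day 1 and -0.16 at day 3. These genes were named after their values were seen.

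Markers of other cells were read in the same libraries, and their part in the members' changes was not tested. Of 10 proximal tubule markers 4 were lower at day 1 and 4 at day 3, and of 6 injured tubule markers, summing to 233 to 313 CPM at day 0, 5 were higher at each. The 6 markers of thick limb and distal segments summed to 7429 to 9862 CPM at day 0, 3881 to 6297 CPM at day 1 and 2362 to 3724 CPM at day 3. The 7 adipocyte markers summed to 0.173 to 25.7 CPM at day 0, 1.29 to 34.9 CPM at day 1 and 0.620 to 23.6 CPM at day 3. Adipoq was at 0 in 9 of 14 libraries, and Ucp1, which marks brown adipocytes, was at most 2.18 CPM. Macrophage markers summed to 125 to 202 CPM at day 0, 72.0 to 127 CPM at day 1 and 96.2 to 405 CPM at day 3. Singly they went both ways: Cd68 was higher and Csf1r lower at each time, Lyz2 was higher at day 3, and the rest did not pass. Neutrophil markers summed to 0.471 to 1.21 CPM at day 0, 42.1 to 186 CPM at day 1 and 11.7 to 391 CPM at day 3, and all 3 were higher at each time. Endothelial markers summed to 171 to 228, 225 to 393 and 112 to 494 CPM, and fibroblast markers to 71.2 to 82.1, 103 to 183 and 165 to 342 CPM. Of the hepatocyte markers Apoa1 was at most 1.03 CPM and Alb at most 28.7 CPM, while Cyp2e1, which kidney tubules also express, made up most of that list.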

How the data were processed

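Bulk RNA sequencing of kidney in 14 libraries was deposited as 1 table of read counts per gene for each library, made by the authors with STAR after trimming with Trimmomatic, on mm10 by the submitters' processing notes. Tool versions and settings are not given in the sources used here. Column 4 of the deposited counts was used, since it held 98.5% to 98.7% of strand-assigned reads, and 29.0% to 38.3% of reads were on no single gene and were left out. Depth was 12485579 to 20476979 reads on genes, with a median of 17147263. Libraries of a day differed by more than counting error (lowest chi-square over its degrees of freedom 5.69).

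From the counts, CPM scaled by TMM and log2 CPM with a prior count of 2 were computed. Genes were filtered by filterByExpr over days (14300 kept) and tested in edgeR 4.0.16 (R 4.3.3) with the quasi-likelihood test, all 14 libraries in 1 fit by day, or by day and file number format for contrasts of formats. Benjamini-Hochberg adjusted p under 0.05 over all genes was called. Alternatives were the unstranded column, RLE factors, no TMM, other filters, DESeq2 1.42.0, fewer samples, a term for format, a replicate block and leaving out each library.

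Each of the 38 genes is named. Values in every library are given for the 3 lowest and 2 highest log2 fold changes of each compartment class at each day, the largest format difference of each class, members that rose, Ppargc1a, and Cpt1a, Cpt2, Slc25a20, Ehhadh, Acaa1a and Acaa1b. Members and lists were chosen with earlier results of these data known. Upstream sequences were read from RefSeq tables on GRCm38.p6, with chromosome 18 not analysed here, and the planned reading of peroxisomal targeting signals in proteins was not run.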

Additional observations from a re-analysis of the deposited data

Results flagged for a closer look

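In 4 of 114 groups of libraries 1 library stood apart from the others of its day by Dixon's criterion, where chance marks about 1 in 20 groups (5.7 of 114). Day 0 replicate 4 was low for Acad11, at a log2 CPM of 8.03 against 8.32 to 8.37 in the other 3 libraries. The same library was high for Acaa2, at 8.12 against 7.48 to 7.58. Day 0 replicate 3 was high for Slc27a2, at 12.35 against 12.19 to 12.20. Day 1 replicate 4 was low for Ppargc1a, at 4.28 against 4.84 to 5.06.

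The log2 ratio of 3-digit to 1-digit libraries differed between day 3 and day 1 for 19 of 38 members (17.6% of all genes), by the test of that difference itself in edgeR. It was higher at day 3 for Acadm by 1.01, Acadsb by 1.50, Acad10 by 2.48, Acox3 by 2.54, Acsm2 by 2.38, Acsm3 by 2.84, Pecr by 4.25, Etfa by 1.06, Etfb by 0.73 and Scp2 by 0.87. The difference was -3.14 for Acaa1b, -2.62 for Ehhadh, -1.04 for Hsd17b4, -1.04 for Cpt2 and -0.85 for Crat, and for Abcd3, Acadl, Etfdh and Hadha it lay between -1.13 and -0.87.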

How the results depend on the processing

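The count of members called at day 1 (12) was 6 with a replicate block and 25 with 3-digit libraries of days 1 and 3 alone, and 7 to 15 with 1 library left out. The day 3 count (21) was 13 to 24 with 1 library left out. Between day 3 and day 1 the count of 6 became 2 in a fit of those days alone, 26 with 1-digit libraries of days 1 and 3, 10 by DESeq2 and 2 to 9 with 1 library left out. For formats, the day 1 count of 17 was 6 with the replicate block and 10 to 22 with 1 library left out. The day 3 count of 12 was 0 with the block in edgeR, where 11 of 38 had an unadjusted p under 0.05 and the lowest adjusted p was 0.142, and DESeq2 without the block called 17. Leaving out 1 library gave 2 to 21, and 9 to 23 for the 19 differences. Same-numbered libraries did not pair: 4 of 13 correlations exceeded 0.1, from -0.17 to 0.26, and 4 of 13 libraries correlated best with their own number. The cause was not tested.

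In 3-digit libraries alone the log2 fold change between day 3 and day 1 turned to 0.52 for Acadsb, 0.47 for Acad10, -0.91 for Acaa1b, -0.50 for Cpt2 and 1.70 for Pecr. That of Cpt2 in the 3-digit libraries of day 1 against day 0, whose libraries are all 1-digit, turned to 0.64. In 1-digit libraries alone Acox3 turned to -1.15 between day 3 and day 1. Of the other values of named genes under alternatives 3265 kept their side of the threshold, 195 lost and 121 gained it. With shared members counted as peroxisomal the mitochondrial minus peroxisomal median went from -0.10 to -0.0087 (day 1) and from -0.39 to -0.19 (day 3). With 1 library left out the mitochondrial minus peroxisomal median lay between -0.16 and 0.04 (day 1) or between -0.54 and -0.30 (day 3).

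Over all genes, calls between day 3 and day 1 (2276) were 831 in a fit of those days, 5194 in 1-digit libraries and 1269 to 1460 without day 1 replicate 3, 4 or 5 or day 3 replicate 1 or 3. Day 3 calls (4757) were 8119 in 1-digit libraries. Format calls at day 1 (5001) were 2507 with the block and 1997 without day 1 replicate 2. Those at day 3 (2645) were 0 with the block, 91 without day 3 replicate 5, 1176 and 1144 without replicates 2 and 3 and 4771 without replicate 1. The differences (2510) were 1608 with the block and 1260 and 1613 without day 1 replicates 1 and 2. Without TMM the median of all genes shifted by 0.14 at day 3, 0.15 between day 3 and day 1, 0.21 for the format at day 1 and -0.17 for the difference, and the share of higher calls went from 58.5% to 73.8%, 53.6% to 77.9%, 53.1% to 73.1% and 51.9% to 35.0%. Depth limited no member, since each had at least 281 reads in every library.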
